A study of Mus musculus with 24 samples.

Results

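The genes described here were 10 heat shock protein genes of the mouse, read in 24 RNA-seq libraries of sorted myeloid cells from colon lamina propria (LP) and colon tumours. They were chosen by name, as the rows of the expression table whose Ensembl identifiers belong to Hspa1a, Hspa1b, Hspa8, Hsph1, Dnajb1, Hsp90aa1, Hsp90ab1, Hspd1, Hspe1 and Hspb1. The rule itself uses no measured value, but the members were chosen with earlier results of these data known. All 10 were among the 17301 genes of the table, and all 10 passed the filter that kept 12878 genes for testing, a mean of at least 1 RPKM (reads per kilobase of transcript and mega-read of library) in at least 1 group. Values are given as log2 RPKM, so a difference of 1 is a doubling and levels of different genes are set per kilobase of transcript. A change is called where the adjusted p of limma's moderated test, run over all 12878 genes, was under 0.05.

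The 8 groups of 3 libraries each crossed 2 tissues with 4 populations. LP came from C57/BL mice and tumours from APC/Min mice, whose inherited Apc mutation leads to adenomas, so tissue, genotype and donor strain label changed together. In each tissue the sorted cells were F4/80hi MHCIIhi macrophages (LP_Ma.Hi, Tu_Ma.Hi), F4/80hi MHCIIlow macrophages (LP_Ma.Lo, Tu_Ma.Lo), Ly6Chi MHCII- monocytes (LP_Mo, Tu_Mo) and Ly6Ghi CD11b+ F4/80- neutrophils (LP_Ne, Tu_Ne), all from adult mice. Each library pooled the tissue of several mice, named by a Roman numeral, and the same pool within a tissue often gave several populations. Tumour growth was speeded with dextran sodium sulphate, a polymer that injures the colon epithelium, and the study's methods give it to control mice as well, at another concentration, while the labels call the LP healthy. What the LP donors had received is therefore not settled here.

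Heat shock proteins are molecular chaperones, which bind unfolded or partly folded proteins and keep them from aggregating. HSP70 proteins bind and release clients in a cycle driven by ATP, HSP40 proteins bring clients to them, and HSP110 proteins help them exchange nucleotide. HSP90 proteins act later, on kinases, receptors and other nearly folded clients, HSP60 and HSP10 form the folding chamber of mitochondria, and small heat shock proteins hold unfolded clients without ATP. Many of these genes are switched on together by the transcription factor HSF1 after heat, oxidative stress or protein damage. Warm enzymatic digestion of tissue before sorting is known to raise some of them too, along with immediate-early genes such as Fos and Jun.

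The promoters show which members carry the HSF1 recognition motif, inverted repeats of GAA, close to the start of transcription. RefSeq windows of 250 bases before and 50 after each start (GRCm38.p6) were at hand for 7 of the members. Capitals mark 2 abutting units (GAANNTTC or TTCNNGAA) and any further unit, with both strands searched. Hspa1a and Hspb1 are shown as members with 2-unit matches, Hsph1 for a 3-unit match, and Hspe1 for the window it shares with Hspd1, which holds 4 units in a row.
Hspa1a, chr17:34972107-34972406, minus strand: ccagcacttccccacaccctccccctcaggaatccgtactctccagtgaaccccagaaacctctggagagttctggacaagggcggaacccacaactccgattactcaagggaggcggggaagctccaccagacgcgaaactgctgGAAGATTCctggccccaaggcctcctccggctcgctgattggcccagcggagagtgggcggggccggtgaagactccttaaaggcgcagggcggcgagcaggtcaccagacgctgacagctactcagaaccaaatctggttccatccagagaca
Hsph1, chr5:149636266-149636565, minus strand: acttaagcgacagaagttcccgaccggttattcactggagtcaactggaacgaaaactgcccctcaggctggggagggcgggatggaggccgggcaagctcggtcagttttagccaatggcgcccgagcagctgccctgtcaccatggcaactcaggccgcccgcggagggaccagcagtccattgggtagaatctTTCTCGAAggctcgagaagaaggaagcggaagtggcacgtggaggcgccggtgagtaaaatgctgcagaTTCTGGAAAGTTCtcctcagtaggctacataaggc
Hspe1, chr1:55087898-55088197, plus strand: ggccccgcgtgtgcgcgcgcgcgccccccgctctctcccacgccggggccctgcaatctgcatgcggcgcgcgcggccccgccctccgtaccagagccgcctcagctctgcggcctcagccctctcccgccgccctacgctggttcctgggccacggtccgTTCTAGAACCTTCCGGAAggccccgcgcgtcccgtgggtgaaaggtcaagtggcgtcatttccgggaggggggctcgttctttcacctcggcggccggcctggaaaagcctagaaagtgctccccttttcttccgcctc
Hspb1, chr5:135887669-135887968, plus strand: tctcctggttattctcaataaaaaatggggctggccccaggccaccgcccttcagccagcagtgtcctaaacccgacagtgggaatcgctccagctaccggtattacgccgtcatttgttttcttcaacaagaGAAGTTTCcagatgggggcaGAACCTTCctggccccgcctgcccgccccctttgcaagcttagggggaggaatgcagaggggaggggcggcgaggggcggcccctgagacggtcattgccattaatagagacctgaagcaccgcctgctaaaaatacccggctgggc

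The 3-unit motif, on either strand, was in 0.603% of 32851 RefSeq promoter windows and the 2-unit motif in 15.1%. The Hspa1b window differed from that of Hspa1a in 4 of 300 bases and held the same 2-unit match, at 104 to 97 bases before the start. The 4 units between Hspd1 and Hspe1 lay 89 to 72 bases before the Hspe1 start and 144 to 127 bases before 1 of the 2 annotated starts of Hspd1, which is read the other way. They lay inside the gene for the outer start of Hspd1. Hspb1 had 2-unit matches at 117 to 110 and at 97 to 90 bases before its start, and Hsph1 had its 3-unit match 16 to 28 bases after 1 of its 2 annotated starts. The 2 windows of Dnajb1 and the second, more distant window of Hspd1 held no match to these letters, which says only that these letters are not in those windows. No window was at hand for Hspa8, Hsp90aa1 or Hsp90ab1. A match is a string of letters, not a measured binding site.

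Libraries held 12.8 to 41.7 M (mega) reads on genes, with a median of 26.4 M, so all members but Hspa1b, Hspe1 and Hspb1 rested on at least 62 reads in every library. Hspe1 rested on 4 to 40 reads in neutrophil libraries, Hspb1 on 4 to 25, and Hspb1 on 12 to 45 in tumour monocytes. Hspa1b had 0 to 24 reads in neutrophils, with no read in 2 of those 6 libraries, so its log2 values there were set by the 0.25 reads that the authors added before taking logs. Macrophage markers (Adgre1, Csf1r, Mertk, C1qa, C1qb and Cx3cr1) summed to 3070 to 6180 RPKM in macrophage libraries and to 184 to 722 RPKM in the others. Neutrophil markers summed to 11400 to 29000 RPKM in neutrophils and to at most 148 RPKM elsewhere, and monocyte markers to 412 to 891 RPKM in monocytes, with 573 to 998 RPKM in neutrophils. In macrophages the monocyte markers summed to 12.4 to 63.8 RPKM, except in LP MHCIIlow macrophages, where pools II, III and IV gave 452, 123 and 140 RPKM. In a bulk library, fewer expressing cells and less RNA per cell cannot be told apart.

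Some members share sequence with copies elsewhere, and how the authors counted reads that match several places is not given in the sources used here. Hspa1a (ENSMUSG00000091971, chr17:34969190-34972156, GRCm38, minus strand) and Hspa1b (ENSMUSG00000090877, chr17:34956436-34959238) share 58.6% of the 51-base stretches of Hspa1a, so the split of reads between them is uncertain. Of the 51-base stretches, 47.3% in Hsp90aa1 (chr12:110690605-110702728), 41.6% in Hspd1 (chr1:55077835-55088243), 39.1% in Hspa8 (chr9:40800984-40810087) and 49.9% in Hspb1 (chr5:135887919-135889563) occur in another annotated gene, mostly processed pseudogenes. Hsph1 (chr5:149614287-149636376) shares none, Dnajb1 (chr8:83608193-83612653) 0.349%, Hsp90ab1 (chr17:45567775-45573271) 3.25% and Hspe1 (chr1:55088132-55091307) 22.4%. Hspd1 and Hspe1 overlap head to head in 4.24% of the exon bases of Hspd1, and 19.0% of those of Hspa1a lie in Gm20481 on the opposite strand. Without strand in the library kit, reads in such overlaps cannot be assigned.

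One library stood apart for these genes, that of LP MHCIIlow macrophages from pool II (LP_Ma.Lo II). All 10 members were at least 1 log2 unit above both other libraries of its group, which held for 4.49% of all genes tested. In no other library were more than 1 member above, or 2 below, both others by that much. Its excess over the mean of pools III and IV was 3.02 for Hspa1a, 2.49 for Hsph1, 1.88 for Hspa1b, 1.86 for Hspb1, 1.64 for Hsp90aa1, 1.61 for Hspd1, 1.52 for Hspa8, 1.47 for Dnajb1, 1.40 for Hspe1 and 1.35 for Hsp90ab1. The median of all genes differed by 0.05 and that of 18 immediate-early genes by 0.45. Other chaperone groups were also above 0, with medians of 0.71 for 14 other HSP90 proteins and co-chaperones, 0.55 for 7 other HSP70 and HSP110 proteins and 0.43 for the 8 subunits of the TRiC/CCT chaperonin, whereas heat shock factors and their regulators had a median of -0.07. The monocyte markers of that library summed to 452 RPKM, within the range of monocyte libraries (412 to 891 RPKM). Their median log2 RPKM there was -1.23, against 0.32 and -0.28 in pools III and IV and 5.95 to 6.49 in LP monocytes. The sum thus came from part of the marker list. LP monocytes held less of every member than that library, at 3.63 to 3.93 for Hspa1a against 9.61. The part of such cells was not tested. No other LP library carried the numeral II, so pool and library cannot be told apart, and each result below is also given without LP_Ma.Lo II where it matters. That library was singled out by the values of these same members. Smaller adjusted p-values without it come in part from that choice.

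**Figure D1:**
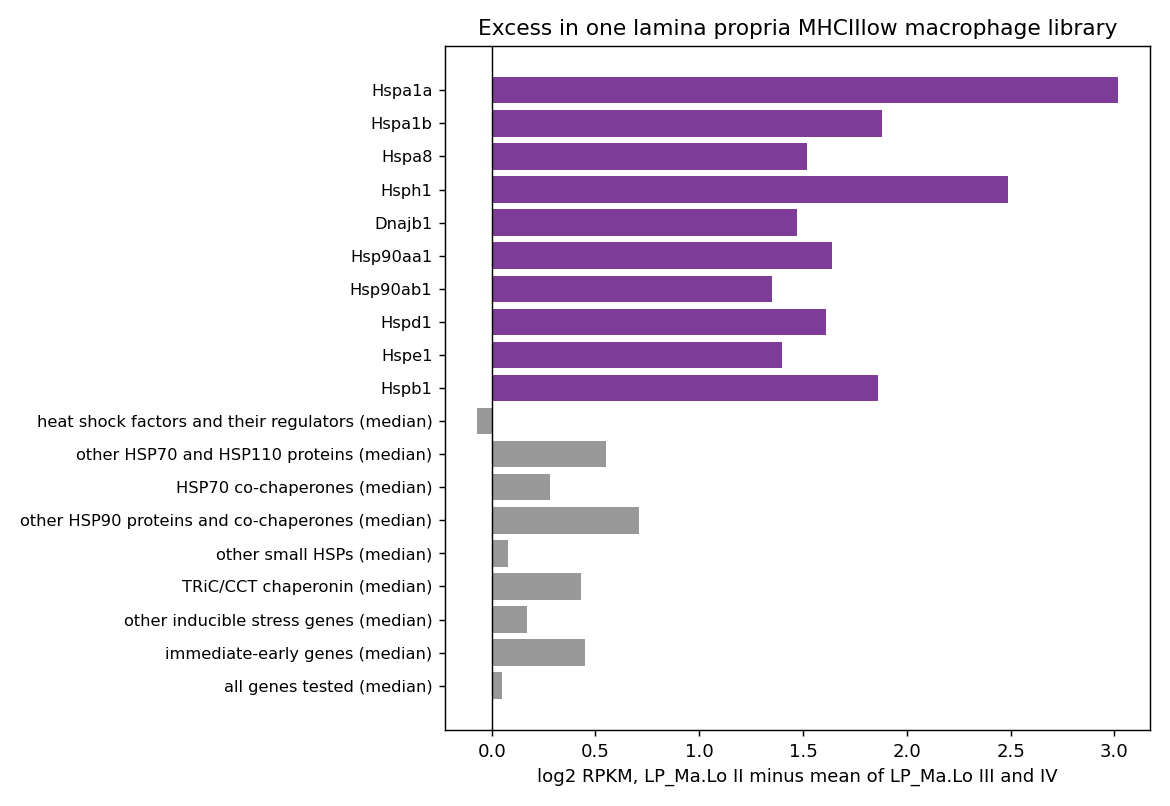
Horizontal bars give log2 RPKM in library LP_Ma.Lo II minus the mean of LP_Ma.Lo III and IV, for each of the 10 members (purple) and for the median of each related gene list and of all genes tested (grey). All 10 member bars lie between 1.35 and 3.02, and the list medians between -0.07 and 0.71.

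The share of all gene reads that fell on the 10 members showed the same library and an order of populations. The members took 1.74% of reads in LP_Ma.Lo II and 0.488 to 0.581% in the other 5 LP macrophage libraries. They took 0.459 to 0.618% in tumour macrophages, 0.247 to 0.332% in monocytes and 0.0577 to 0.0913% in neutrophils. Macrophage, monocyte and neutrophil ranges did not overlap. In neutrophils the tumour libraries (0.0845 to 0.0913%) were all above the LP libraries (0.0577 to 0.0696%).

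**Figure D2:**
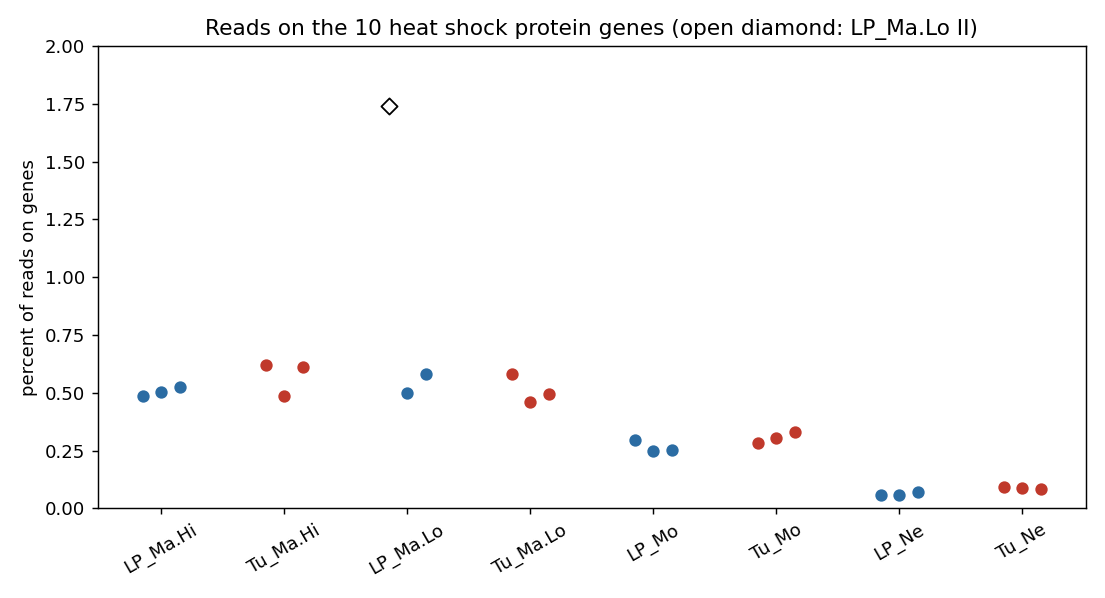
Points give the percent of each library's reads on genes that fell on the 10 members, by group, with LP in blue and tumour in red and the library LP_Ma.Lo II as an open diamond. That library is at 1.74%, the other macrophage libraries at 0.459 to 0.618%, and neutrophils at 0.0577 to 0.0913%.

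The authors' scaling bears on every comparison with neutrophils. The library size behind the values was 0.466 to 0.682 times the reads on genes in neutrophils and 0.981 to 1.51 times in the others. Taking summed reads as the size moved the median of all genes by -0.83 in LP and by -1.13 in tumours for neutrophils minus monocytes, and by -0.47 for tumour minus LP in neutrophils. Centring each library on its median moved the same medians by 0.29, 0.45 and 0.24. The share of higher calls among all calls moved with it: in neutrophils minus monocytes from 44.2% to 21.2% with summed reads in LP and from 40.0% to 15.5% in tumours, or to 53.1% in tumours when centred. For tumour minus LP it moved with summed reads from 41.1% to 52.3% in MHCIIhi macrophages, from 52.3% to 32.9% in monocytes, from 40.8% to 15.9% in neutrophils (57.1% when centred) and from 45.7% to 33.5% over the populations. For MHCIIhi macrophages minus monocytes in tumours it moved from 42.3% to 59.8%, and for MHCIIlow minus MHCIIhi macrophages from 27.6% to 63.5% in LP and from 50.0% to 79.2% in tumours. Directions below are those of the authors' scaling, and among the calls on members the other scalings turned only that of Dnajb1 in tumour neutrophils minus monocytes (1.13 to -0.01 with summed reads). Among differences that were not called, summed reads turned Dnajb1 in LP neutrophils minus monocytes (0.66 to -0.17), and Dnajb1 (0.25 to -0.21) and Hsp90aa1 (0.24 to -0.23) for tumour minus LP in neutrophils. In tumour neutrophils minus monocytes they turned Hspb1 (0.41 to -0.72) and took Hsp90aa1 from 0.12 (adjusted p = 0.776) to a call at -1.02 (0.00503). Centring turned Hsph1 (-0.16 to 0.09) and Hspd1 (-0.20 to 0.04) for tumour minus LP in neutrophils, and the other turns were of differences of 0.31 or less in the authors' scaling.

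All 10 members differed among the 8 groups, as did 88.2% of the genes tested, with adjusted p from 8.84e-10 for Hspd1 to 0.00157 for Dnajb1. Over the 4 populations averaged, tumour minus LP split the members by name: Hspa1a and Hspa8 were higher in tumours (2 of 10, against 19.4% of all genes called higher), and Hsph1, Hsp90aa1, Hspd1 and Hspb1 were lower (4 of 10, against 23.0%). The count of higher members was near the background share. Their log2 differences were 1.26 ± 0.27 (SE) for Hspa1a (adjusted p = 0.00084), 0.67 ± 0.14 for Hspa8 (0.000636), -1.39 ± 0.23 for Hsph1 (5.33e-05), -0.89 ± 0.16 for Hsp90aa1 (0.000127), -0.82 ± 0.16 for Hspd1 (0.000412) and -1.65 ± 0.37 for Hspb1 (0.00134). All 6 calls held in each of the 34 alternatives run, and none changed sign. By the methods, tumours were dissociated with collagenase D and DNase I, and LP with a warm EDTA step and then a longer digestion with collagenase D, while the labels give the LP protocol throughout. Tissue and dissociation cannot be told apart in any tumour and LP comparison, whereas populations of 1 tissue share the procedure. Their pools match only in part, since MHCIIhi macrophages and monocytes share all 3 pools in LP and 2 of 3 in tumours, and LP MHCIIlow macrophages share 2 of 3 with each other LP group.

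**Figure D3:**
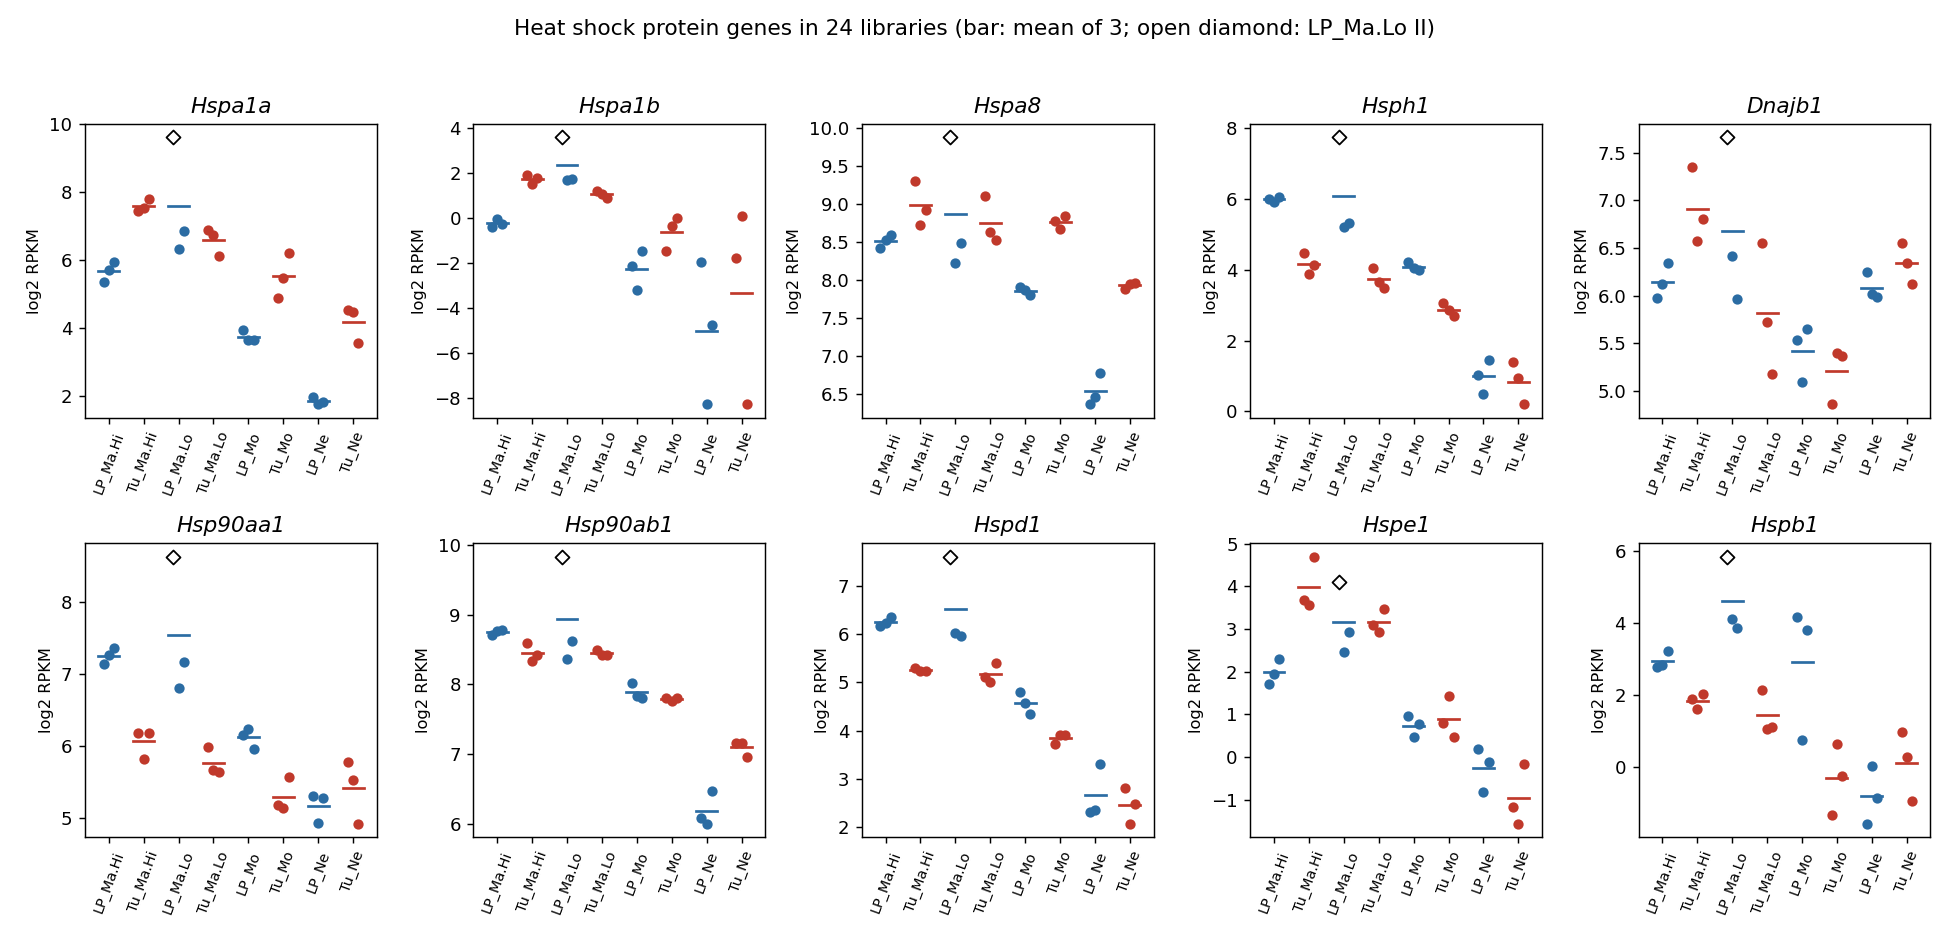
Each panel plots log2 RPKM of a member in all 24 libraries by group, with LP in blue, tumour in red, a bar at the mean of 3 libraries and library LP_Ma.Lo II as an open diamond. Hspa1a and Hspa8 sit higher in tumour MHCIIhi macrophages, monocytes and neutrophils than in the LP, and Hsph1, Hsp90aa1 and Hspd1 sit lower in tumour macrophages.

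Hspa1a encodes the stress-inducible cytosolic HSP70. In MHCIIhi macrophages its log2 RPKM was 5.35, 5.71 and 5.94 in LP and 7.45, 7.54 and 7.79 in tumours. In monocytes it was 3.93, 3.64 and 3.63 in LP and 4.89, 5.48 and 6.19 in tumours, and in neutrophils 1.97, 1.75 and 1.83 in LP and 4.53, 4.48 and 3.55 in tumours. In these 3 populations every tumour library was above every LP library. In MHCIIlow macrophages it was 9.61, 6.33 and 6.86 in LP, the first being LP_Ma.Lo II, and 6.88, 6.72 and 6.12 in tumours, where the ranges overlapped. Hspa1a rose in tumour MHCIIhi macrophages by 1.93 ± 0.54 (3.81-fold, adjusted p = 0.0141), in tumour monocytes by 1.78 ± 0.54 (3.44-fold, 0.0405) and in tumour neutrophils by 2.34 ± 0.54 (5.06-fold, 0.00229). The SE of 0.54 is shared by all groups and includes the spread that LP_Ma.Lo II adds, and without that library it was 0.29, with adjusted p of 8.97e-05, 0.000579 and 7.62e-06. LP_Ma.Lo II was set aside because these same members were high in it, so the smaller p-values are not independent support.

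In MHCIIlow macrophages the Hspa1a difference was -1.03 ± 0.54 (adjusted p = 0.186) with LP_Ma.Lo II and -0.02 (0.996) without it. The tumour difference in MHCIIlow minus that in MHCIIhi macrophages was -2.95 ± 0.76 (0.055), and -1.95 (0.0356) without that library. It was 0.0494 with pool as a random block, and the alternatives ranged from 0.00897 to 0.13. In the MHCIIhi comparison the call was lost without LP_Ma.Hi III (0.0575) or Tu_Ma.Hi VII (0.0522), in a range of 8.97e-05 to 0.0575. In monocytes it was lost without any of LP_Mo III (0.0793), LP_Mo IV (0.0928), LP_Mo V (0.111), Tu_Mo II (0.0923) or Tu_Mo V (0.161), and with summed reads (0.055) or voom, a count-based limma fit on recovered reads (0.0654), in a range of 0.000579 to 0.161. In neutrophils it was lost only with voom (0.162), in a range of 7.62e-06 to 0.162.

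Hspa1b, the second inducible HSP70 gene and a near copy of Hspa1a, was read at far lower values, with a group mean of 3.34 RPKM against 194 RPKM of Hspa1a in tumour MHCIIhi macrophages. Its values were -0.42, -0.04 and -0.26 in LP MHCIIhi macrophages and 1.91, 1.51 and 1.77 in tumour ones, which did not overlap. In monocytes they were -2.12, -3.20 and -1.49 in LP and -1.47, -0.37 and -0.01 in tumours. In MHCIIlow macrophages they were 3.60, 1.69 and 1.75 in LP and lower, at 1.20, 1.07 and 0.88, in tumours. The MHCIIhi and monocyte differences, 1.97 ± 1.52 (adjusted p = 0.429) and 1.65 ± 1.52 (0.593), did not pass the test, and the SE was raised by the neutrophil libraries with no reads. With log2(RPKM + 1), which damps such values, the MHCIIhi difference was 1.22 (0.00617), and over its alternatives adjusted p ran from 0.00208, with the MHCIIhi libraries alone, to 0.566. The MHCIIlow difference was -1.29 ± 1.52 (0.608), or -0.67 (0.859) without LP_Ma.Lo II, and passed with log2(RPKM + 1) (0.017) and with voom (0.0213). Hspa1b was called in none of the comparisons of 2 groups.

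Hspa8 encodes HSC70, the constitutive cytosolic HSP70 that also serves chaperone-mediated autophagy and the uncoating of clathrin vesicles. In monocytes its log2 RPKM was 7.91, 7.87 and 7.80 in LP and 8.78, 8.68 and 8.85 in tumours. In neutrophils it was 6.37, 6.47 and 6.78 in LP and 7.89, 7.95 and 7.97 in tumours, again without overlap. In MHCIIhi macrophages it was 8.42, 8.53 and 8.59 in LP and 9.30, 8.73 and 8.93 in tumours, and in MHCIIlow macrophages 9.88, 8.23 and 8.49 in LP and 9.11, 8.63 and 8.53 in tumours. Hspa8 rose in tumour neutrophils by 1.40 ± 0.28 (2.63-fold, adjusted p = 0.000683), a call that held in all 18 alternatives (0.0141 at most). Epithelial markers were also higher in these libraries, at 151 to 307 RPKM in tumour neutrophils against 12.7 to 62.2 RPKM in LP ones, and their part in the neutrophil differences of Hspa1a, Hspa8 and Hsp90ab1 was not tested. It rose in tumour monocytes by 0.91 ± 0.28 (1.88-fold, 0.0421), where leaving out any 1 of the 6 monocyte libraries ended the call: 0.0918, 0.0841 and 0.114 without LP_Mo III, IV and V, and 0.105, 0.0799 and 0.109 without Tu_Mo I, II and V. It was also lost with summed reads (0.0728) and quantile normalization (0.0518), and the range over its alternatives was 0.000885, without LP_Ma.Lo II, to 0.114. In MHCIIhi macrophages it was 0.47 ± 0.28 higher (0.265), which passed without LP_Ma.Lo II (0.0385, the lowest in a range up to 0.567), and in MHCIIlow macrophages the difference was -0.11 ± 0.28 (0.832), or 0.39 (0.134) without that library.

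Hsph1 encodes HSP110 (HSP105), the nucleotide exchange factor of HSP70, and fell in tumour macrophages. In MHCIIhi macrophages its log2 RPKM was 6.0, 5.92 and 6.05 in LP and 4.47, 3.87 and 4.12 in tumours. In MHCIIlow macrophages it was 7.74, 5.20 and 5.31 in LP and 4.05, 3.66 and 3.48 in tumours. Every LP macrophage library was thus above every tumour macrophage library. In monocytes it was 4.22, 4.04 and 4.0 in LP and 3.06, 2.86 and 2.68 in tumours, and in neutrophils 1.04, 0.49 and 1.45 in LP and 1.38, 0.93 and 0.20 in tumours, where the ranges overlapped. Hsph1 fell in tumour MHCIIhi macrophages by 1.84 on the log2 scale (SE 0.45, 3.57-fold, adjusted p = 0.00625) and in tumour MHCIIlow macrophages by 2.35 (5.11-fold, 0.000648), or by 1.52 (0.00096) without LP_Ma.Lo II. Both calls held in every alternative. In monocytes the difference was -1.22 ± 0.45 (0.0992) and passed without LP_Ma.Lo II (0.00488), in a range of 0.00434 to 0.225. In neutrophils it was -0.16 ± 0.45 (0.83).

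Dnajb1 encodes an HSP40 protein that delivers clients to HSP70, and no tumour and LP difference of it passed the test in the fit of all libraries. The values were 5.97, 6.12 and 6.34 in LP against 7.35, 6.57 and 6.80 in tumour MHCIIhi macrophages, a difference of 0.76 ± 0.35 (adjusted p = 0.137). In MHCIIlow macrophages they were 7.66, 6.42 and 5.96 in LP against 6.55, 5.72 and 5.18 in tumours, a difference of -0.86 ± 0.35 (0.0803), or -0.37 (0.466) without LP_Ma.Lo II. Over the alternatives adjusted p ran from 0.0258, with the MHCIIhi libraries alone, to 0.402 in MHCIIhi macrophages, where quantile normalization also passed (0.048). In MHCIIlow macrophages it ran from 0.0164 to 0.466, passing with voom (0.0398) and without LP_Ma.Lo IV or Tu_Ma.Lo I, the latter giving 0.0164. The monocyte and neutrophil differences were -0.21 ± 0.35 (0.796) and 0.25 ± 0.35 (0.613). Dnajb1 was the member with the narrowest spread of group means, from 5.21 in tumour monocytes to 6.91 in tumour MHCIIhi macrophages, and 7 of the 7 neighbours in that order overlapped.

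Hsp90aa1 and Hsp90ab1 encode the 2 cytosolic HSP90 proteins, the first more stress-inducible and the second mainly constitutive. Hsp90aa1 log2 RPKM in MHCIIhi macrophages was 7.14, 7.26 and 7.36 in LP and 6.18, 5.82 and 6.18 in tumours. In MHCIIlow macrophages it was 8.63, 6.80 and 7.17 in LP and 5.99, 5.66 and 5.63 in tumours, so all LP macrophage libraries were above all tumour ones. It fell by 1.19 (SE 0.31, 2.28-fold, adjusted p = 0.0094) and by 1.77 (3.41-fold, 0.000273), the latter by 1.22 (0.000445) without LP_Ma.Lo II, and both calls held in every alternative. In monocytes it was 6.15, 6.24 and 5.96 in LP and 5.18, 5.13 and 5.57 in tumours, a difference of -0.82 ± 0.31 (0.107) that passed without LP_Ma.Lo II (0.00907), in a range up to 0.262. In neutrophils it was 0.24 ± 0.31 (0.591).

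Hsp90ab1 was not called in tumour macrophages. In macrophages it was 8.71, 8.77 and 8.78 in LP MHCIIhi against 8.59, 8.34 and 8.43 in tumour MHCIIhi cells, a difference of -0.30 ± 0.24 (adjusted p = 0.439), and -0.50 ± 0.24 (0.144) in MHCIIlow cells, or -0.05 (0.874) without LP_Ma.Lo II. In neutrophils it was 6.08, 6.0 and 6.47 in LP and 7.16, 7.16 and 6.96 in tumours. It rose there by 0.91 ± 0.24 (1.88-fold, 0.00592), a call that did not hold with summed reads (0.44, 0.131) or quantile normalization (0.0941), in a range of 1.74e-05 to 0.131. Whether the neutrophil and monocyte differences of Hsp90ab1 differ was tested: 1.01 ± 0.33 (0.0638), or 0.0013 without LP_Ma.Lo II, in a range up to 0.165.

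Hspd1 (HSP60) and Hspe1 (HSP10) form the mitochondrial folding chamber and lie head to head on chromosome 1. Their tumour differences went in opposite directions in MHCIIhi macrophages, and the 2 genes were not tested against each other. In MHCIIhi macrophages Hspd1 was 6.17, 6.22 and 6.36 in LP and 5.29, 5.24 and 5.24 in tumours. Hspe1 was 1.71, 1.95 and 2.29 in LP and 3.67, 3.56 and 4.70 in tumours. Neither pair of ranges overlapped, and the directions were opposite. Hspd1 fell by 0.99 (SE 0.32, 1.99-fold, adjusted p = 0.034) and Hspe1 rose by 1.99 ± 0.43 (3.97-fold, 0.00249). The Hspe1 call held in all 18 alternatives, while that of Hspd1 was lost without any 1 of the 6 libraries compared, with 0.0679, 0.0766 and 0.0997 without LP_Ma.Hi III, IV and V, and 0.0697, 0.0761 and 0.0834 without Tu_Ma.Hi I, V and VII. It was also lost with summed reads (0.0636) and was 0.00271 without LP_Ma.Lo II, in a range of 0.000746 to 0.0997.

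In MHCIIlow macrophages Hspd1 was 7.60, 6.02 and 5.95 in LP and 5.10, 5.01 and 5.40 in tumours, and fell by 1.35 (SE 0.32, 2.56-fold, adjusted p = 0.00394), or by 0.82 (0.0233) without LP_Ma.Lo II. Hspe1 was 4.10, 2.46 and 2.93 in LP and 3.10, 2.93 and 3.47 in tumours, with a difference of 0.00 ± 0.43 (adjusted p = 1.0), or 0.47 (0.531) without that library. In monocytes Hspd1 was -0.71 ± 0.32 (0.191) and passed without LP_Ma.Lo II (0.0437), in a range of 0.0254 to 0.411, while Hspe1 was 0.16 ± 0.43 (0.885). In neutrophils both were low, Hspd1 at 2.08 to 3.32 and Hspe1 at -1.56 to 0.19 over the 6 libraries, and neither passed. The reads of Hspe1 were few beside those of Hspd1 in every group, 1.93 RPKM against 14.5 RPKM in tumour monocytes for instance.

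Hspb1 encodes HSP25 (HSP27), an ATP-independent small heat shock protein that also binds actin, abundant in epithelial and muscle cells. In MHCIIlow macrophages its log2 RPKM was 5.84, 4.10 and 3.85 in LP and 2.13, 1.04 and 1.11 in tumours. In monocytes it was 4.16, 0.75 and 3.80 in LP and -1.33, 0.63 and -0.26 in tumours. Both sets were apart, although LP_Mo IV lay only just above Tu_Mo II. Hspb1 fell in tumour MHCIIlow macrophages by 3.17 (SE 0.74, 8.98-fold, adjusted p = 0.00353), or by 2.54 (0.0297) without LP_Ma.Lo II, and the call held in all 17 alternatives. It fell in tumour monocytes by 3.22 (9.33-fold, 0.00821), a call lost without LP_Mo III (0.0576), LP_Mo V (0.0508) or Tu_Mo I (0.0539), when only the monocyte libraries were fitted (0.0558) and with voom (0.118), in a range of 0.000299 to 0.118. In MHCIIhi macrophages it was 2.77, 2.83 and 3.21 in LP and 1.88, 1.59 and 2.01 in tumours (-1.11 ± 0.74, 0.344), and in neutrophils 0.90 ± 0.74 higher (0.385).

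Markers of other cells moved with tissue beside Hspb1. The 6 fibroblast markers summed to 6.83 to 62.0 RPKM in LP libraries and to 0.0128 to 1.57 RPKM in tumour libraries, with Col1a1, Col1a2, Col3a1, Lum and Pdgfra at 0 reads in all 3 tumour monocyte libraries. In LP monocytes III, IV and V they summed to 28.8, 13.2 and 21.7 RPKM and the 7 epithelial markers to 212, 19.4 and 63.6 RPKM, in the order of the Hspb1 values 4.16, 0.75 and 3.80. In LP MHCIIlow macrophages II, III and IV the fibroblast markers summed to 19.6, 62.0 and 58.9 RPKM and the epithelial ones to 23.3, 18.2 and 18.8 RPKM. The Hspb1 values there were 5.84, 4.10 and 3.85. The fibroblast sums were not in that order. The epithelial sum was highest in library II, as was Hspb1, and those of III and IV were close to each other. Epithelial markers summed to 104 to 316 RPKM in tumour monocytes, where Hspb1 was -1.33 to 0.63, and fibroblast markers to 20.7 to 40.3 RPKM in LP neutrophils, where Hspb1 was -1.58 to 0.03. B and plasma cell markers summed to 157 to 575 RPKM in LP monocytes and to 0.188 to 4.68 RPKM in tumour ones, and to 351 to 1290 RPKM and 0.59 to 20.1 RPKM in LP and tumour neutrophils. Muscle markers summed to 1.88 to 4.96 RPKM in LP monocytes and to 3.94 to 5.29 RPKM in tumour ones. The part of such cells in the Hspb1 result was not tested.

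**Figure D4:**
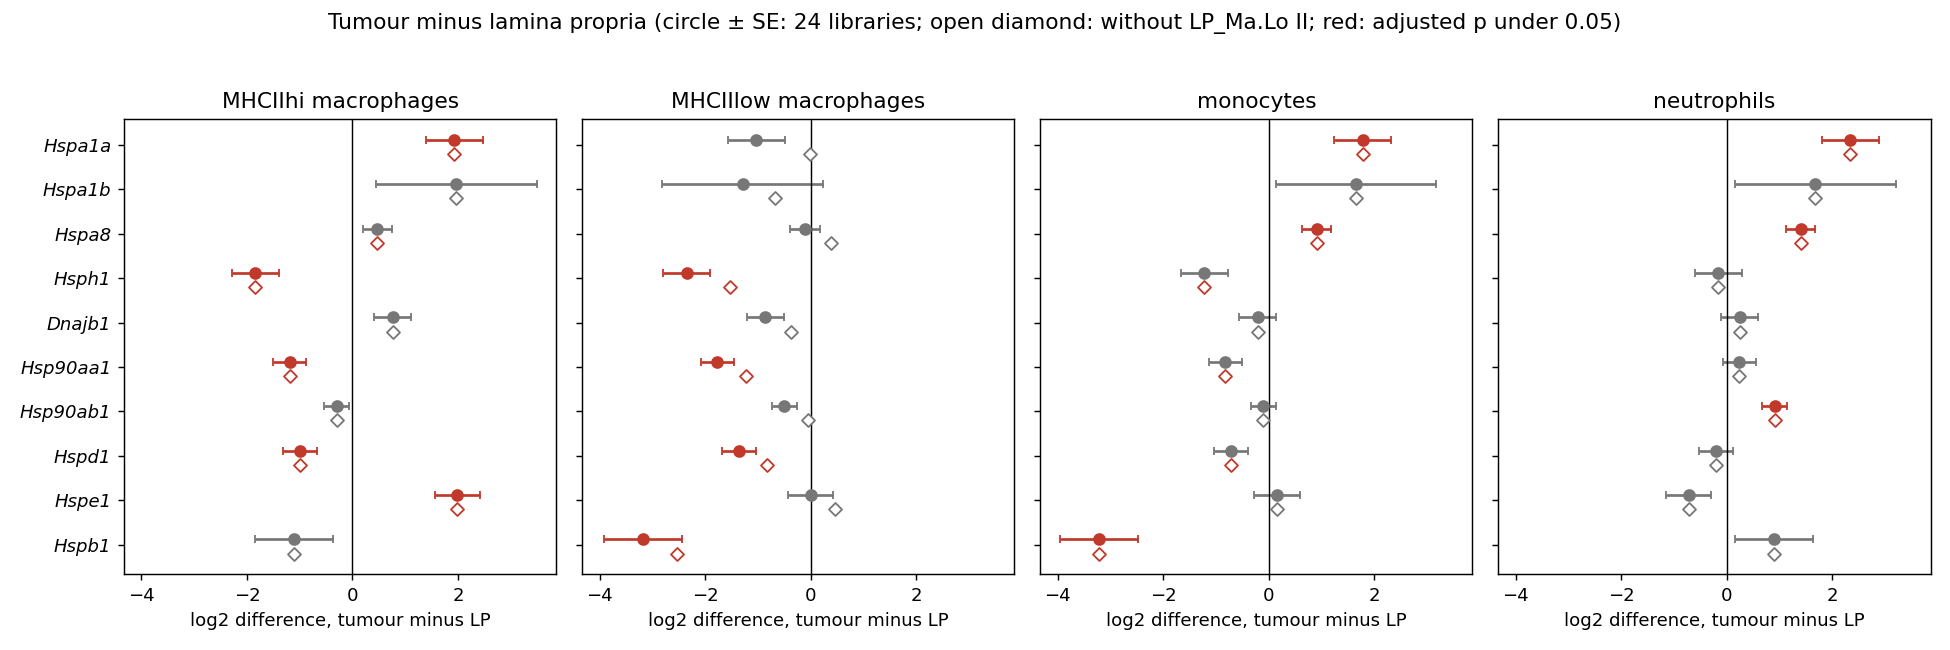
Circles give the log2 difference, tumour minus LP, of each member with its SE in the fit of 24 libraries, in 4 panels by population, and open diamonds the same difference without library LP_Ma.Lo II, with red for adjusted p under 0.05. Hspa1a is at 1.93, 1.78 and 2.34 in MHCIIhi macrophages, monocytes and neutrophils, and Hsph1 at -1.84 and -2.35 in the 2 macrophage populations.

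Counted by population, tumour MHCIIhi macrophages had 2 members higher (8.01% of all genes) and 3 lower (11.5%). In MHCIIlow macrophages none of the calls was higher (11.5% of all genes) and 4 were lower (11.8%), with a median member difference of -1.16 against 0.06 over all genes, or -0.52 without LP_Ma.Lo II. In monocytes 2 were higher (4.86%) and 1 lower (4.43%), and in neutrophils 3 were higher (13.1%) and none lower (19.0%), with a median of 0.57 against -0.12. At an unadjusted p under 0.05 there were 6, 6, 6 and 3 members in these 4 comparisons, against 30.9%, 33.8%, 22.4% and 41.6% of all genes, so that the neutrophil count was below the background share. The tumour and LP libraries did not overlap for 10, 5, 8 and 3 members, against 43.0%, 42.1%, 31.4% and 40.1% of all genes. Voom on recovered reads called 6, 6, 1 and 2. Without LP_Ma.Lo II the calls were 6 in MHCIIhi macrophages (3 higher, 3 lower), 4 in MHCIIlow macrophages, 6 in monocytes (2 higher, 4 lower) and 3 in neutrophils. That library was set aside on the values of these members, so these counts add no independent support. In monocytes the count fell to 0 without LP_Mo III or LP_Mo V, and to 1 without LP_Mo IV, Tu_Mo I, Tu_Mo II or Tu_Mo V. In MHCIIhi macrophages it fell to 3 without LP_Ma.Hi III or Tu_Ma.Hi VII. The tumour difference in neutrophils minus that in monocytes was called for Hspb1 alone (4.12 ± 1.05, adjusted p = 0.0177), against 9.11% of all genes, and without LP_Ma.Lo II also for Hsp90ab1 (1.01, 0.0013) and Hsp90aa1 (1.06, 0.138 with the library and 0.018 without it). The MHCIIlow minus MHCIIhi and the MHCIIhi macrophage minus monocyte differences of the tumour effect were called by limma for none of the 10, against 1.46% and 5.76% of all genes. At an unadjusted p under 0.05 there were 3 and 1 members, against 12.8% and 17.5% of all genes, so the latter count was below the background share. Voom called 4 and 0.

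Immediate-early genes, which digestion is known to raise, were also higher in tumours in several populations. Of 18 such genes, all tested, 6 rose and 1 fell in tumour MHCIIhi macrophages, 2 rose and 4 fell in MHCIIlow macrophages, 7 rose in monocytes and 11 rose in neutrophils. Of all genes, 8.01%, 11.5%, 4.86% and 13.1% rose in these comparisons, so that the count of rises in MHCIIlow macrophages was at the background share. Their median differences were 0.43, -0.04, 0.62 and 1.21. Nr4a1, an orphan nuclear receptor induced within minutes, rose by 2.41 (adjusted p = 3.27e-05) in MHCIIhi macrophages, by 2.23 (0.000274) in monocytes and by 3.81 (1.51e-07) in neutrophils. Atf3, a stress-induced transcription factor, rose by 2.46 (5.84e-07) in MHCIIhi macrophages and by 1.15 (0.00168) in MHCIIlow macrophages. The populations in which Hspa1a rose were those with positive immediate-early medians. In MHCIIlow macrophages the immediate-early median of -0.04 includes LP_Ma.Lo II, whereas the Hspa1a difference was near 0 only without that library. These values are therefore not of the same libraries. Summed over the list, these genes reached 3230 to 7510 RPKM in macrophages and monocytes of both tissues, 11400 to 13100 RPKM in LP neutrophils and 32700 to 40200 RPKM in tumour neutrophils. Their part in the Hspa1a and Hspa8 differences was not tested.

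Other chaperone genes were read in the same comparisons from lists of related genes. Among 17 HSP70 co-chaperones, 4 fell in tumour MHCIIlow macrophages and 1 fell in neutrophils, against 11.8% and 19.0% of all genes. Bag3, a co-chaperone that links HSP70 to autophagy and is a known HSF1 target, fell by 2.16 (SE 0.45, adjusted p = 0.00137) in MHCIIlow macrophages, or by 1.49 (0.00927) without LP_Ma.Lo II. The HSP40 genes Dnaja1 and Dnajb4 fell there by 1.79 (0.000606) and 1.68 (2.97e-06), or by 1.17 (0.000929) and 1.48 (3.18e-05) without that library, and Dnajb4 differed between the macrophage populations in its tumour effect (-1.32, 0.02, or -1.12, 0.0496 without LP_Ma.Lo II). Among 7 other HSP70 and HSP110 genes, Hspa4l, an HSP110 relative, rose by 1.85 (0.00274) in tumour monocytes and by 2.52 (3.23e-05) in tumour neutrophils, where Hspa4 rose by 1.06 (1.75e-05). The mitochondrial HSP70 gene Hspa9 fell by 0.56 (0.027) in tumour MHCIIhi macrophages, in 12 of 18 alternatives, and by 0.61 (0.0136) in MHCIIlow macrophages, or 0.43 (0.0979) without LP_Ma.Lo II. The luminal ER chaperones Hspa5 and Hyou1 fell in tumour neutrophils by 0.76 (0.00641) and 1.21 (0.00411).

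Among 14 other HSP90 proteins and co-chaperones, Fkbp5, an immunophilin induced by glucocorticoids, rose by 1.72 (adjusted p = 0.0158) in tumour MHCIIhi and by 2.67 (0.00039) in tumour MHCIIlow macrophages. Ptges3 (p23), which closes the HSP90 cycle, fell in both, by 0.69 (0.00861) and 0.76 (0.00322). Fkbp4 and Trap1, the latter the mitochondrial HSP90, rose in tumour neutrophils by 1.10 (0.00449) and 0.85 (0.0111), and the ER paralogue Hsp90b1 fell there by 1.13 (5.63e-05). The 8 TRiC/CCT genes had 1 call in MHCIIlow macrophages (Cct7, 0.46, 0.027) and 2 in neutrophils (Cct7, 0.98, 4.54e-05, and Cct4, -0.98, 1.23e-05). Of all genes, 11.5% rose in the former, and 13.1% rose and 19.0% fell in the latter, so these counts were near the background shares. Of the heat shock factors and their regulators, Hsf1, Hsf2 and Hsbp1 passed the filter, and the calls were Hsbp1 in neutrophils (0.53, 0.0265) and Hsf2 over the 4 populations averaged (-0.58, 0.0256). Serpinh1 (HSP47), a collagen chaperone, was lower in tumours in all 4 populations, by 6.67 to 9.0, and Hspb8 by 5.58 (0.0369) and 8.82 (0.00135) in the MHCIIhi and MHCIIlow macrophages. Both are low genes. Serpinh1 in all tumour groups and Hspb8 in tumour macrophages lay at or near 0 reads, so these sizes depend on the 0.25 reads added. The fibroblast markers given above were also lower in tumour libraries. Hspb8 had a mean log2 RPKM of -0.44 in tumour monocytes, where those markers summed to 0.0128 to 0.183 RPKM. The part of such cells in the Serpinh1 and Hspb8 differences was not tested. For tumour minus LP, Hspb8 was called in neither monocytes nor neutrophils.

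Within a tissue, where the dissociation procedure was the same, macrophages held more of most members than monocytes. In LP, MHCIIhi macrophages were higher than monocytes for 6 members and lower for none (9.26% and 10.8% of all genes). Hsph1 was higher by 1.90 ± 0.45 (adjusted p = 0.0048), Hspd1 by 1.68 ± 0.32 (0.000808), Hspa1a by 1.93 ± 0.54 (0.014), Hspe1 by 1.25 ± 0.43 (0.0463), Hsp90aa1 by 1.14 ± 0.31 (0.0126) and Hsp90ab1 by 0.86 ± 0.24 (0.0127). In tumours, 7 were higher and none lower (13.6% and 18.5%): Hspe1 by 3.08 ± 0.43 (1.2e-05), Hspb1 by 2.15 ± 0.74 (0.0317), Hspa1a by 2.07 ± 0.54 (0.00521), Dnajb1 by 1.70 ± 0.35 (0.000697), Hspd1 by 1.40 ± 0.32 (0.00212), Hsph1 by 1.29 ± 0.45 (0.034) and Hsp90ab1 by 0.67 ± 0.24 (0.036). The LP comparisons with monocytes share LP_Mo, and the tumour ones Tu_Mo, as the tumour and LP comparisons above share these same groups. The member medians were 1.19 and 1.55, against 0.00 over all genes in both tissues. No member lower in macrophages was found at an adjusted p under 0.05 by limma. At an unadjusted p under 0.05 there were 8 members in each tissue, against 31.9% of all genes in LP and 41.9% in tumours, while voom called 5 and 7.

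Several of these calls were close to the threshold. With pool as a fixed block, Hspa8 and Dnajb1 also passed in LP (0.65, adjusted p = 0.105 without the block and 0.00437 with it, and 0.72, 0.154 and 0.0397) and Hsp90aa1 in tumours (0.77, 0.0645 and 0.0205). In tumours the Hsph1, Hsp90ab1 and Hspb1 calls were lost when a library was left out. Without Tu_Ma.Hi I they were at 0.11, 0.106 and 0.0713, without Tu_Ma.Hi VII at 0.0707, 0.0707 and 0.0831, without Tu_Mo I at 0.0552, 0.0759 and 0.151, and without Tu_Mo V at 0.0951, 0.0739 and 0.0649. Without Tu_Ma.Hi V the Hsp90ab1 and Hspb1 calls were at 0.0522 and 0.0539, and without Tu_Mo II the Hsph1 and Hsp90ab1 calls at 0.0745 and 0.0829. Each of Tu_Ma.Hi I, Tu_Ma.Hi VII, Tu_Mo I and Tu_Mo V left a count of 4. In LP the Hspe1 call was lost without any of the 6 libraries (0.0635 to 0.15), that of Hspa1a without LP_Ma.Hi V (0.0556) and that of Hsp90aa1 without LP_Mo V (0.0503). Over the alternatives adjusted p ran from 0.000292 to 0.11 for Hsph1, from 0.000279 to 0.106 for Hsp90ab1 and from 0.0115 to 0.212 for Hspb1 in tumours, and from 0.00728 to 0.15 for Hspe1 in LP.

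Neutrophils were lowest for most members. In LP, 7 were lower than in monocytes and none higher (30.4% of all genes lower and 24.1% higher). Hspb1 was lower by 3.71 on the log2 scale, that is -3.71 ± 0.74 (adjusted p = 0.000298), and Hsph1 was at -3.10 ± 0.45 (9.1e-06), Hspd1 at -1.91 ± 0.32 (4.83e-05), Hspa1a at -1.89 ± 0.54 (0.00557), Hsp90ab1 at -1.71 ± 0.24 (4.83e-06), Hspa8 at -1.32 ± 0.28 (0.000455) and Hsp90aa1 at -0.95 ± 0.31 (0.0143). The Hsp90aa1 call was lost without LP_Ne IV (0.0585) and when centred (0.0839), in a range from 3.41e-05 to 0.0839, and that of Hspa1a with voom (0.15). Dnajb1 was not called, with 6.25, 6.02 and 5.98 in LP neutrophils against 5.53, 5.09 and 5.65 in LP monocytes (0.66 ± 0.35, 0.113). It passed with pool as a fixed block (0.0275), but was -0.17 (0.677) with summed reads and 0.13 (0.785) with quantile normalization, in a range of 0.0169 to 0.785. Hspe1 passed with that block too (-0.98, 0.0611 without the block and 0.0459 with it). The member median was -1.80 against -0.24 over all genes.

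In tumours, 6 were lower and 1 higher (34.9% and 23.3% of all genes). Hsph1 was at -2.03 ± 0.45 (adjusted p = 0.000695), Hspe1 at -1.86 ± 0.43 (0.00103), Hspd1 at -1.40 ± 0.32 (0.000969), Hspa1a at -1.33 ± 0.54 (0.0388), Hspa8 at -0.84 ± 0.28 (0.0138) and Hsp90ab1 at -0.69 ± 0.24 (0.0165). Dnajb1 was higher, with 6.55, 6.34 and 6.12 in neutrophils against 4.86, 5.40 and 5.37 in monocytes (1.13 ± 0.35, 0.00867). This direction rested on the scaling, since the Dnajb1 difference was -0.01 (0.985) with summed reads as library sizes and 0.47 (0.282) with quantile normalization. When centred, the Hspa1a, Hspa8 and Hsp90ab1 calls were lost (0.17, 0.251 and 0.396), while with summed reads all 6 members called lower stayed so. Voom left 3 of the 7 calls, losing Hspa1a (0.183), Hsph1 (0.119), Hspd1 (0.0844) and Hspe1 (0.133). The Hspa1a call was also lost with weights for each library (0.0829), and without Tu_Mo II (0.0718), Tu_Mo V (0.164) or Tu_Ne V (0.158), and that of Hsp90ab1 without Tu_Ne V (0.0564). Adjusted p ran from 0.000339 to 0.183 over the alternatives of Hspa1a, from 1.35e-06 to 0.251 for Hspa8, from 5.83e-07 to 0.396 for Hsp90ab1 and from 0.000647 to 0.985 for Dnajb1. Among the 8 TRiC/CCT genes all 8 were lower in neutrophils in both tissues, led by Tcp1 in LP (-2.54, 2.53e-10), whereas 14 of 18 immediate-early genes were higher in LP and 15 in tumours.

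**Figure D5:**
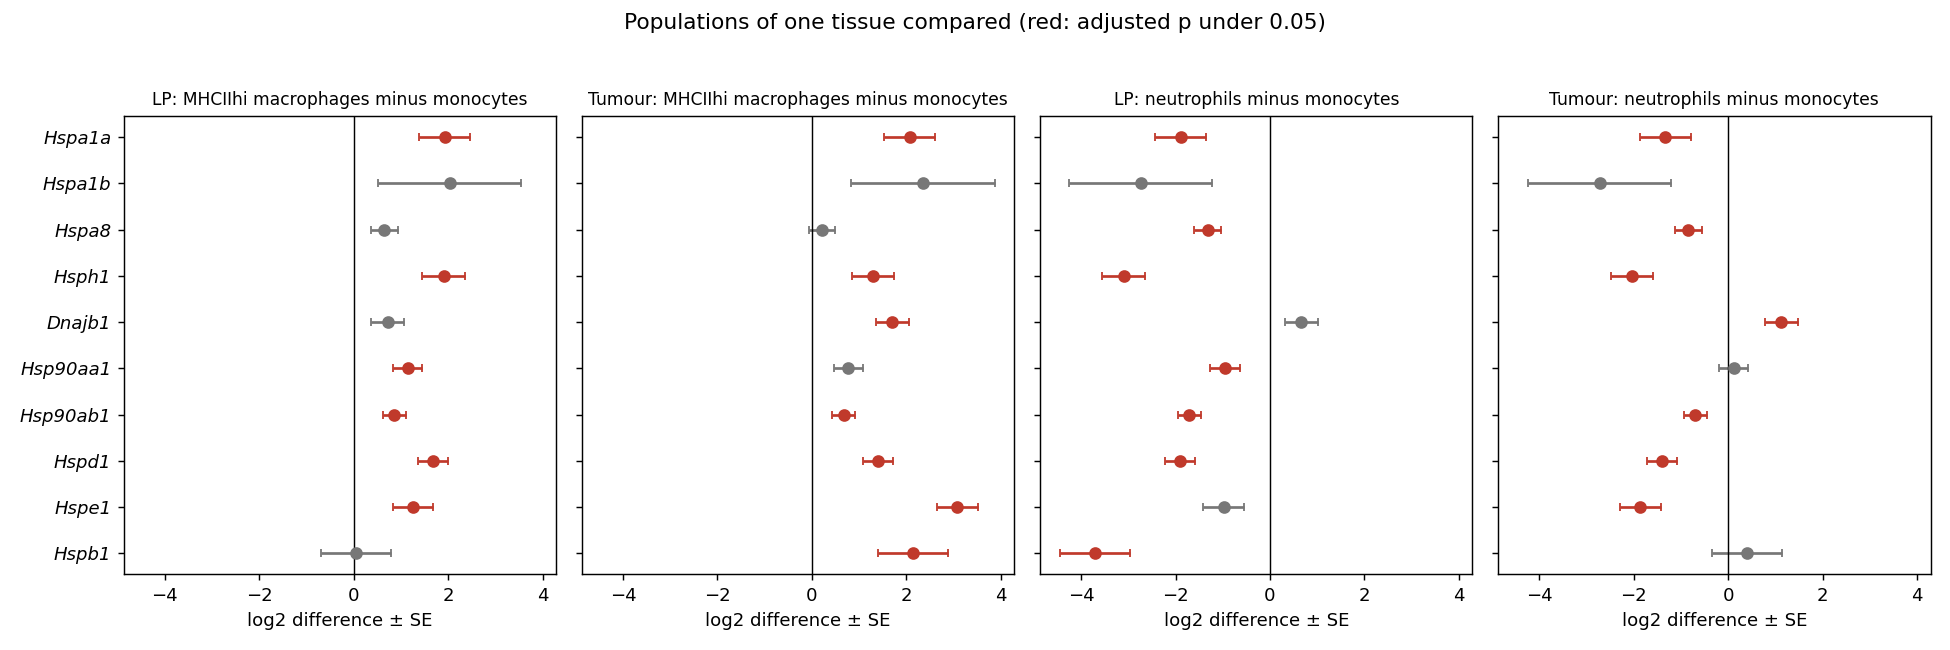
Circles give log2 differences with their SE for each member, MHCIIhi macrophages minus monocytes and neutrophils minus monocytes, in LP and in tumours, with red for adjusted p under 0.05. Members lie mostly right of 0 in the first 2 panels and left of 0 in the last 2, with Dnajb1 at 0.66 and 1.13 for neutrophils, a value that is -0.01 in tumours when summed reads set the library size.

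Comparisons of the 2 macrophage populations gave few calls. In LP, MHCIIlow minus MHCIIhi macrophages gave 1 call, Hspa1a higher by 1.93 ± 0.54 (adjusted p = 0.0299), against 2.13% of all genes higher and 5.57% lower. Without LP_Ma.Lo II it was 0.93 (0.121), and with pool as a fixed block, which leaves that library no partner in its pool, 0.95 (0.181). It was 0.119 when only the LP macrophage libraries were fitted. The call was also lost without LP_Ma.Hi III (0.116), LP_Ma.Hi IV (0.0813) or LP_Ma.Hi V (0.0569), in a range of 0.0036 to 0.181. In tumours limma called none of the members, against 0.567% of all genes in each direction, and voom called none. At an unadjusted p under 0.05 there was 1 member in tumours, against 11.2% of all genes, which is near the background share. Dnajb1 passed there with pool as a fixed block (-1.09, adjusted p = 0.151 without the block and 0.0263 with it). In tumours the libraries of the 2 populations did not overlap for 4 members, Hspa1a, Hspa1b, Dnajb1 and Hspe1, all lower in MHCIIlow macrophages. The share of all genes without overlap was not computed for this comparison, so that count has no background. The values were 6.88, 6.72 and 6.12 against 7.45, 7.54 and 7.79 for Hspa1a. They were 3.10, 2.93 and 3.47 against 3.67, 3.56 and 4.70 for Hspe1.

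The order of the 8 groups, from high to low mean, put a macrophage group first for all 10 members and a neutrophil group last for 9, with tumour monocytes last for Dnajb1. For Hspa1a the order was LP_Ma.Lo (7.60), Tu_Ma.Hi (7.59), Tu_Ma.Lo (6.57), LP_Ma.Hi (5.66), Tu_Mo (5.52), Tu_Ne (4.19), LP_Mo (3.74) and LP_Ne (1.85). Neighbours in that order overlapped in the first pair, between LP_Ma.Hi and Tu_Mo and between Tu_Ne and LP_Mo. Tu_Ma.Lo also overlapped LP_Ma.Lo and Tu_Mo, which were not its neighbours. For Hspd1 the order was LP_Ma.Lo (6.52), LP_Ma.Hi (6.25), Tu_Ma.Hi (5.25), Tu_Ma.Lo (5.17), LP_Mo (4.57), Tu_Mo (3.86), LP_Ne (2.66) and Tu_Ne (2.46), where overlap occurred only between the 2 populations of LP macrophages, of tumour macrophages and of neutrophils. Without LP_Ma.Lo II the LP_Ma.Lo mean was 6.59 for Hspa1a and 5.99 for Hspd1, second to Tu_Ma.Hi and to LP_Ma.Hi, and LP_Ma.Lo came first for Hspb1 alone. Per kilobase, Hspa8 and Hsp90ab1 were the 2 highest members in every group by mean RPKM. In macrophages and monocytes their group means were 232 to 535 RPKM and 221 to 548 RPKM. In neutrophils Hspa8 was at 93.7 RPKM in LP and 245 RPKM in tumours, and Hsp90ab1 at 73.5 and 137 RPKM.

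Some members resembled each other in pairs across the 24 libraries. These correlations are descriptions, and the libraries share pools, scaling and the library LP_Ma.Lo II. They run over 8 groups of different cells, so differences between populations enter every r. High r was common among all genes: Hspa1b ranked 75 for Hspa1a with r = 0.85, and Hsp90aa1 ranked 33 for Hsph1 with r = 0.90. Hsph1 and Hspd1 had a Pearson r of 0.97 and were each other's nearest among all genes tested, and Hspa1a and Hspa8 were so with r = 0.93. Hsp90ab1 lay near Hspd1 (0.93) and Hsph1 (0.92), and Hsp90aa1 near Hsph1 (0.90). Dnajb1 was the least like the others, with r of 0.27 to 0.47. Outside the members, the nearest genes to Hsph1 were Lmna (0.97), Hspa9 (0.96) and Mat2a (0.95), to Hspd1 Hspa9 (0.97), Cd36 (0.95) and Tnip2 (0.95), and to Hspa1a Prkacb (0.92), Manba (0.91) and Ap1b1 (0.91). Hspa8 was nearest to Fkbp4 (0.92), Hspe1 to Rcc2 (0.96), Hspb1 to Lima1 (0.90) and Dnajb1 to Slc46a3 (0.79). Hsp90aa1 was nearest to Gm12346 (0.91), the annotated gene with which it shares 41.6% of its 51-base stretches.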

How the data were processed

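Each library was made by the authors with a modified SMARTSeq v2 protocol from sorted cells pooled over several mice. The submitters' processing notes name STAR 2.3, featureCounts 1.5 and edgeR, with reads placed on GRCm38. The deposited values are log2 RPKM on library sizes scaled by the authors, who left out genes with few reads in every population. The handling of reads that match several places is not given in the sources used here.

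From these values whole reads were recovered for 100% of 415224 values (tolerance 0.001 reads, 0.25 reads added by the authors), which gave depths of 12.8 to 41.7 M (mega) reads on genes. Genes with a mean of at least 1 RPKM in at least 1 group (12878 of 17301) were fitted in limma 3.58.1 (R 4.3.3) with 8 group means over all 24 libraries and a trended prior, leaving 16 residual degrees of freedom. Two-sided p-values were Benjamini-Hochberg adjusted over all genes tested, separately for each comparison. The p-values measure the spread between libraries of a group, each from its own pool, so pool and library preparation cannot be told apart. Libraries of different groups from the same pool entered the fit as independent, except where pool was a block. Counts of reads recovered from the deposited values entered voom as an alternative. The fit was tested on simulated data.

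Alternatives were log2(RPKM + 1) and log2(RPKM + 0.1), no filter or a mean of at least 5 RPKM, quantile normalization, centring, only the libraries compared, library weights, voom, pool as a random or fixed block, each library left out and, added after seeing the data, summed reads as library sizes and leaving out LP_Ma.Lo II in every comparison. Libraries of 1 tissue with the same numeral were taken to come from the same pooled mice, and so were paired there but not across tissues. The labels do not state this. Over 29 pairs of one pool the correlation of deviations was -0.0661 to 0.255 (median 0.0169), and the consensus correlation with pool as a random block was 0.0476.

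The genes named are the 10 members, at most the 3 largest rises and falls among calls of each related gene list and comparison, and the 3 genes nearest in Pearson r to each member. Members and lists were chosen with earlier results of these data known, so no list was tested. Coordinates are those of GENCODE M21 on GRCm38, which matched 17190 of the identifiers, and promoters those of RefSeq on GRCm38.p6.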

Additional observations from a re-analysis of the deposited data

Results flagged for a closer look

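The tumour effect on Hspb1 differed between neutrophils and monocytes, by a test of that difference itself. Tumour minus LP was 0.90 in neutrophils and -3.22 in monocytes, and the difference of the differences was 4.12 ± 1.05 (SE, limma, adjusted p = 0.0177). It was not past the threshold without LP_Mo III (0.0532), LP_Mo V (0.0501) or Tu_Mo I (0.0513), when only the monocyte and neutrophil libraries were fitted (0.0749) or with voom (0.323), in a range of 0.00112 to 0.323 over 24 alternatives. The values rested on 12 to 45 reads in tumour monocytes and on 4 to 25 in neutrophils, and LP monocytes spread from 0.75 to 4.16 log2 RPKM.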

How the results depend on the processing

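Across 50 differences of called members, 933 of the alternative values kept their direction and call, 91 lost the call and 1 turned: Dnajb1 in tumour neutrophils minus monocytes was -0.01 with summed reads, under which the median of all genes shifted by -1.13. For tumour minus LP, the 5 calls in MHCIIhi macrophages became 8 with only the libraries compared and 3 to 6 on leaving out a library, and the 3 in monocytes became 5 with only the libraries compared or library weights, 1 with voom and 0 to 6 on leaving out a library. MHCIIlow minus MHCIIhi macrophages gave 1 call in LP, 3 with log2(RPKM + 1), 2 with log2(RPKM + 0.1) or library weights, 4 with voom, 0 with pool as a fixed replicate block and 0 to 2 on leaving out a library. In tumours it gave 0, with 1 for the fixed block and 0 to 1 on leaving out a library. MHCIIhi macrophages minus monocytes in tumours gave 4 to 8 on leaving out a library. Neutrophils minus monocytes in tumours gave 4 when centred and 3 with voom, against 7. The tumour effect in MHCIIlow against MHCIIhi macrophages, with 0 calls, gave 3 with log2(RPKM + 1), 2 with quantile normalization, 4 with voom, 1 each with log2(RPKM + 0.1), the stricter filter, summed reads, only the libraries compared, library weights or pool as a random block, and 0 to 2 on leaving out a library. In MHCIIhi macrophages against monocytes it gave 1 with log2(RPKM + 1), only the libraries compared or library weights, and 0 to 1 on leaving out a library. In neutrophils against monocytes it gave 2 with the stricter filter or centred, 0 with voom and 0 to 3 on leaving out a library. Of the libraries that raised a count when left out, LP_Ma.Lo III gave 2 calls for LP macrophages, Tu_Ma.Lo I gave 1 for tumour macrophages, LP_Ma.Lo II, LP_Ma.Lo III and Tu_Ma.Lo I gave 1 and LP_Ma.Lo IV gave 2 for the tumour effect in MHCIIlow against MHCIIhi cells, LP_Mo IV gave 1 for that in MHCIIhi macrophages against monocytes, and LP_Ne V gave 2 for that in neutrophils against monocytes. Pool as a random block changed no other call of a member. The cause of these changes was not tested. Few reads limit Hspa1b, Hspe1 and Hspb1 in neutrophils.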
